A study of Arabidopsis thaliana with 16 samples.

Results

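RNA recovered with ribosomes was compared between Arabidopsis seedlings held in the cold and untreated seedlings. The comparison takes every library that the labels give as polysomal, 2 cold and 2 control libraries, which are 4 of the 16 samples of the series. All 4 were made from whole Arabidopsis thaliana seedlings (ecotype Col-0) aged 20 days and grown on agar plates at 22 °C with 12 h of light per day. The cold group spent 24 h at 4 °C and the control group was left untreated. The series asks what part the mRNA mark N6-methyladenosine (m6A) plays in the cold response, and its other samples are 3 cold and 3 control mRNA libraries and 6 lists of m6A peaks, of which the mRNA libraries are set beside the polysomes here. The sources used here do not say how polysomes were isolated, at what time of day seedlings were collected or how they were lit in the cold. Whether replicates are separate batches of seedlings is not stated either, so the p-values reflect variation among these libraries, which may be technical.

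An mRNA that carries several ribosomes sediments as a polysome, so the RNA in this fraction samples the messages that are being translated. The level of a gene there depends on how much of its mRNA the cell holds and on what share of it is loaded. Plants that acclimate to cold make cold-regulated (COR) and dehydrin proteins under the CBF transcription factors, which bind the CRT/DRE element in promoters, and they adjust sugar metabolism, water channels and growth. Ribosomes themselves are built in the nucleolus from ribosomal RNA and ribosomal proteins by a large set of assembly factors. Levels below are in CPM, a gene's counts scaled to the total of its library, so they are shares and cannot show whether the total amount of polysomes changed.

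The 4 polysome libraries held 12984431 to 22200225 gene counts, with cold replicate 2 the lowest, and 92.8% to 93.8% of the reads tallied in each fell in genes. Of 38 light-reaction genes, 16 Calvin-cycle genes and 14 root markers all were measured, as were 3 of 8 floral organ markers. Light-reaction genes took 6.46% and 7.52% of the counts in cold and 11.7% and 12.5% in control. Root markers took 0.0544% and 0.0377% in cold and 0.127% and 0.0824% in control, and floral markers at most 0.000758%. Green-tissue and root transcripts were thus present and floral transcripts were near 0. The counts came from whole seedlings, so fewer cells of a type and less RNA per cell cannot be told apart.

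The replicate numbers set the libraries apart in both treatments, and iron and phosphate genes stood out. A list of 14 iron-deficiency genes and a list of 12 phosphate-starvation genes was drawn up after this was seen. Summed over the iron list, polysomal levels were 2677 CPM in cold replicate 1 and 116 CPM in cold replicate 2, and 2431 CPM and 302 CPM in control replicates 1 and 2. The phosphate list ran the other way, at 243 and 1343 CPM in cold and 282 and 954 CPM in control. The libraries numbered 1 were thus high in iron-deficiency genes and those numbered 2 in phosphate-starvation genes, whichever the treatment.

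bHLH38, a transcription factor of the iron-deficiency response, was at 175 and 0 CPM in the cold replicates and at 298 and 9.32 CPM in the control replicates. ORG1, also induced by iron shortage, was at 1084 and 64.8 CPM in cold and at 645 and 118 CPM in control. PS2, a phosphatase of the phosphate-starvation response, was at 13.0 and 218 CPM in cold and at 7.36 and 98.7 CPM in control. None of these 26 genes was called between cold and control. The lists were drawn up after the replicates were seen to differ, and such differences widen the error of that test. Whether these genes respond to cold therefore cannot be read from it. Among 9352 genes compared between replicates, 52 were over 2-fold higher in number 1 in both treatments, 80 over 2-fold lower in both and 6 differed over 2-fold in opposite directions.

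In mRNA the iron list summed to 1749, 1561 and 482 CPM in cold replicates 1 to 3 and to 1538, 601 and 170 CPM in control, so it also differed widely within each treatment there. The phosphate list was at 195, 200 and 220 CPM in cold mRNA and at 563, 734 and 1089 CPM in control mRNA. Where the text below gives the median polysome change of a list, it therefore also gives the median within number 1 (cold replicate 1 against control replicate 1) and within number 2. The part that nutrient supply, or whatever else the replicate numbers mark, had in any cold change was not tested.

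**Figure D1:**
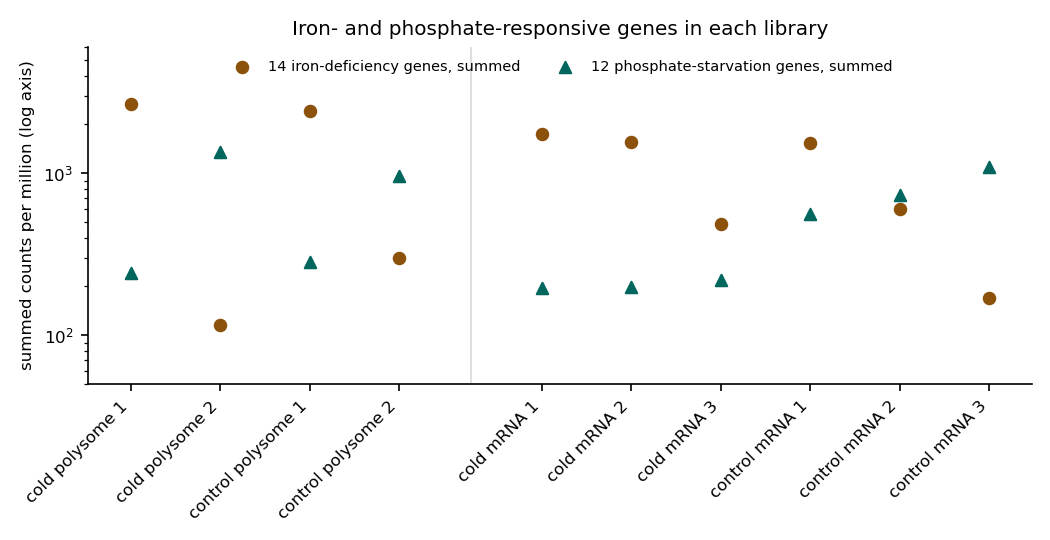
Summed CPM (log axis) of 14 iron-deficiency genes (circles) and 12 phosphate-starvation genes (triangles) in the 4 polysome libraries (left) and the 6 mRNA libraries (right), each point 1 library. In polysomes the iron genes are high in both libraries numbered 1 (2677 and 2431) and the phosphate genes in both numbered 2 (1343 and 954).

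Of 19239 genes tested, 744 (3.87%) were higher in cold polysomes and 760 (3.95%) lower at an adjusted p of at most 0.05 (edgeR's quasi-likelihood test with Benjamini-Hochberg adjustment), and these are the genes said below to have risen or fallen. The lowest adjusted p was 0.0133 and the median log2 change of all genes was −0.02, where log2 changes are cold minus control throughout. The genes that rose took 9.69% and 10.9% of the counts of the cold libraries and 2.41% and 2.24% of those of the control libraries. The genes that fell took 1.62% and 1.74% in cold against 6.004% and 5.97% in control. With 2 libraries a group, 60.6% of all genes tested had cold and control libraries that did not overlap, so a lack of overlap in a gene named below is a description.

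With 2 libraries a group the number of calls moved widely when 1 library was left out. Without control replicate 1, 141 genes were called higher and 207 lower, and 291 of the 1504 calls were made again. Without control replicate 2 the counts were 185 and 363, with 469 made again. Without cold replicate 2, 1597 genes were called higher and 1044 lower, with 1331 made again, and without cold replicate 1 the counts were 732 and 663, with 1041 made again. Each of these fits assumes that the lone library of a group varies like the other group, from which the variance comes. Over abundant genes the log2 difference between replicates had an SD of 0.558 in cold and 0.448 in control. These fits also have fewer residual degrees of freedom than the main one. A call lost or gained in such a fit, here and below, need not mean that the gene hangs on that library.

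**Figure D2:**
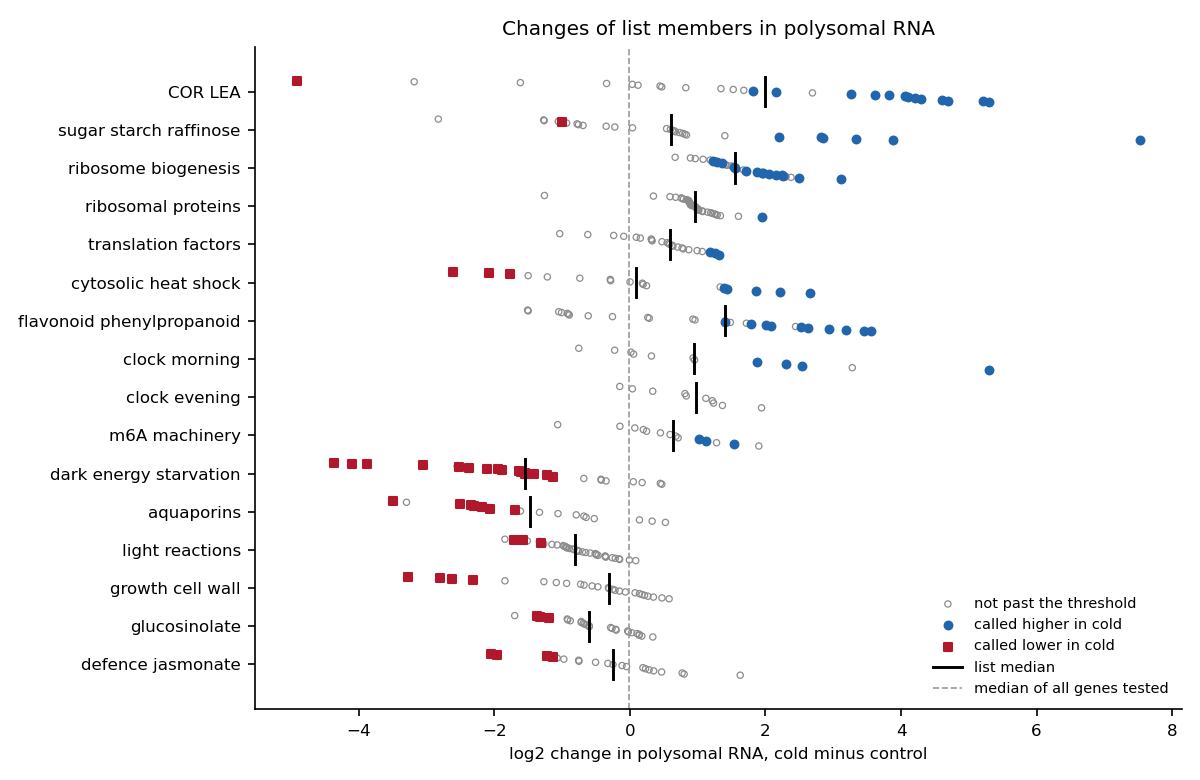
Log2 change in polysomal RNA, cold minus control, of each tested member of 16 gene lists. Filled circles and squares are genes called higher and lower, open circles genes not past the threshold, black bars list medians and the dashed line the median of all genes tested (−0.02). COR/LEA and ribosome biogenesis genes lie to the right, with medians of 1.99 and 1.55, and energy-starvation genes and aquaporins to the left, with medians of −1.54 and −1.47.

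Genes of the COR and LEA list filled a larger part of the polysomes in cold. The list holds genes for hydrophilic proteins that protect membranes and enzymes in cold or dry cells. It also holds others, such as those for the membrane proteins COR414-TM1, ELIP1 and ELIP2. The list took 2.66% and 4.26% of all counts in cold and 0.464% and 0.323% in control. Of 26 members tested 13 rose and 1 fell, with a list median log2 change of 1.99, and within replicate numbers 1 and 2 the median was 1.27 and 2.6. In mRNA 18 of 25 members were called higher, against 13.4% of all genes tested there, with a median of 2.72. With 1 library left out 8 to 12 members were called higher, the fewest without control replicate 1. Against the 3.87% of all genes that rose, the share of this list was 50%. The 1 fall was 3.85% of the list, near the 3.95% of all genes that fell.

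COR15A, a chloroplast protein that stabilises membranes during freezing, was at 6875 and 8383 CPM in cold and 639 and 186 CPM in control. Both cold libraries lay far above both control libraries, and control replicate 1 was above control replicate 2. Its log2 change was 4.21 (standard error of the fit, SE, 0.67, adjusted p 0.0272). COR15A was not called without cold replicate 1 or cold replicate 2 (adjusted p 0.103 and 0.0970). KIN1, a small hydrophilic protein, was at 723 and 1025 CPM in cold and 24.2 and 20.4 CPM in control, a log2 change of 5.29 (SE 0.36, adjusted p 0.0133). The replicates of KIN1 lay close together within each treatment, and the call held with any 1 library left out.

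RD29A, a hydrophilic protein whose promoter is the classic carrier of the CRT/DRE element, was at 3227 and 8039 CPM in cold and 294 and 143 CPM in control. LTI30, a dehydrin, was at 1473 and 3705 CPM in cold and 92.0 and 48.1 CPM in control. In both genes cold replicate 2 was more than 2-fold above cold replicate 1 while the controls ran the other way, and neither call was lost with 1 library left out. RD29A rose by 4.69 (SE 0.65, adjusted p 0.0233) and LTI30 by 5.21 (SE 0.64, adjusted p 0.0212) on the log2 scale.

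COR47 and ERD10, acidic dehydrins, rose by 3.27 and 3.62 on the log2 scale, and COR414-TM1, a chloroplast membrane protein, by 4.06. Their calls were lost without a control library: the adjusted p without control replicate 1 was 0.0722 for COR47, 0.0708 for ERD10 and 0.0515 for COR414-TM1. ELIP1 and ELIP2, early light-induced proteins of the thylakoid, rose too: ELIP1 was at 490 and 112 CPM in cold and 9.72 and 20.8 CPM in control. ELIP2 was at 705 and 208 CPM in cold and 11.8 and 25.6 CPM in control. Both ELIP genes were highest in cold replicate 1, unlike RD29A. Their mRNA log2 changes were 0.77 and 0.30, against 4.3 and 4.61 in polysomes, and the test of the difference gave adjusted p of 0.126 and 0.0580. ELIP1 lost its call without cold replicate 1, control replicate 1 or control replicate 2 (adjusted p 0.0718, 0.142 and 0.103), and ELIP2 without control replicate 1 (adjusted p 0.0680).

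The list was not uniform. LEA7, a late embryogenesis abundant protein, was at 0.848 and 0.970 CPM in cold and 28.8 and 25.4 CPM in control, a fall of 4.90 on the log2 scale (SE 0.28, adjusted p 0.0133), with no overlap between the treatments. RAB18, a dehydrin known to respond to abscisic acid, was at 44.2 and 105 CPM in cold and 276 and 179 CPM in control and did not pass (log2 −1.61, adjusted p 0.0818).

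The promoters of 4 genes that rose, which hold at least 2 copies of the CRT/DRE core CCGAC, are shown because this is the element the CBF proteins bind. They are RefSeq sequence of build TAIR10.1: RD29A from chr5:21240557-21240736 on the plus strand, COR15A from chr2:17712391-17712490 on the minus strand, LTI30 from chr3:18940523-18940652 on the plus strand, and GOLS3 from chr1:3019399-3019458 on the plus strand. Capitals mark CCGAC or, for a copy on the other strand, its complement GTCGG. The first letters of the copies lie 140, 90 and 33 bases before the RefSeq gene start and 4 after it in RD29A, 142 and 79 before in COR15A, 101, 78 and 9 before in LTI30 and 216 and 205 before in GOLS3.
RD29A: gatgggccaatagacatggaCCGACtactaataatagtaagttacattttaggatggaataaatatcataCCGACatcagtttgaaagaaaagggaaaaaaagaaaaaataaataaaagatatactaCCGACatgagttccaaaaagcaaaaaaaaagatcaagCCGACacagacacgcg
COR15A: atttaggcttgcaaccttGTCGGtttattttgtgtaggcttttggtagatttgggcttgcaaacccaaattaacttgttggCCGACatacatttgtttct
LTI30: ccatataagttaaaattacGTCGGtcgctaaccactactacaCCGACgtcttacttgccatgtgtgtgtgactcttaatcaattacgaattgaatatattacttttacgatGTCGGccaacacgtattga
GOLS3: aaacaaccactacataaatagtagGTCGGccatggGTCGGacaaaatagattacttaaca

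CCGAC, searched on both strands from 500 bases before to 50 bases after the gene start, was in 15 of the 26 COR and LEA promoters (57.7%) and in 25.9% of the 18890 promoters of all genes tested. It was in 33.7% of the 744 promoters of genes that rose and in 23.7% of the 758 of genes that fell. The telo-box AAACCCTA showed a wider gap, with 14.2% of rises, 3.96% of falls and 8.31% of all. The evening element AAATATCT was in 15.2%, 10.7% and 9.97%, and TATCCA was in 25.4% of rises, 37.5% of falls and 28.1% of all. These shares are descriptions, with no test, and a match is not a bound site.

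Some genes of sugar metabolism and ADH1 and PDC1 of ethanol fermentation rose. Of 28 genes of starch, sucrose and raffinose metabolism 6 rose (21.4%, against 3.87% of all genes). The 1 fall was 3.57% of the list, near the 3.95% of all genes. The median log2 change was 0.61, and 0.24 and 0.78 within numbers 1 and 2. Without control replicate 1, 2 members were called higher. GOLS3, a galactinol synthase that starts raffinose synthesis and is known to respond to CBF factors, was at 179 and 830 CPM in cold and 2.65 and 2.82 CPM in control. Cold replicate 2 was over 4-fold above cold replicate 1, and the controls nearly coincided. Its log2 change of 7.52 (SE 0.87, adjusted p 0.0201) was the largest of the rises named here. GOLS3 was not called without control replicate 1 or control replicate 2 (adjusted p 0.0597 and 0.0610).

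BAM3, a chloroplast beta-amylase that releases maltose from starch, was at 1164 and 1796 CPM in cold and 200 and 91.9 CPM in control, a rise of 3.34 (SE 0.49, adjusted p 0.0249) on the log2 scale. SUS1, a sucrose synthase, rose by 3.88 and SPS2F, a sucrose phosphate synthase, by 2.2, with adjusted p without control replicate 1 of 0.0630 and 0.0553. SWEET17, a fructose carrier of the vacuole membrane, fell by 1.01 on the log2 scale. SWEET17 was not called without cold replicate 1, control replicate 1 or control replicate 2 (adjusted p 0.0659, 0.161 and 0.169). BAM3 was past the threshold in each fit with 1 library left out. GOLS4, another galactinol synthase, rose by 2.82, from 2.69 and 1.32 CPM in control to 16 and 12.3 CPM in cold, and likewise stayed called.

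ADH1, alcohol dehydrogenase, was at 515 and 931 CPM in cold and 41.7 and 21.3 CPM in control and rose by 4.52 (SE 0.51, adjusted p 0.0189) on the log2 scale. PDC1, the pyruvate decarboxylase that precedes it in ethanol fermentation, was at 71.6 and 64.3 CPM in cold and 7.31 and 1.96 CPM in control and rose by 3.88. PDC1 was not called without cold replicate 1 or cold replicate 2 (adjusted p 0.225 and 0.161). ADH1 and PDC1 were 20% of a core list of low-oxygen response, against the 3.87% of all genes that rose. The other 8 genes of that list did not pass, and the list median was −0.62, with −0.76 and −0.73 within numbers 1 and 2.

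P5CS1 and P5CS2, both of which make the first intermediate of proline synthesis, changed in opposite directions and were the 2 genes edgeR called among 17 for proline and nitrogen. That is 5.88% in each direction, near the 3.87% and 3.95% of all genes, and DESeq2 called 1 higher and 3 lower. P5CS1 was at 233 and 440 CPM in cold and 1131 and 1567 CPM in control, and P5CS2 at 457 and 925 CPM in cold and 165 and 142 CPM in control. P5CS1 thus fell by 2.00 and P5CS2 rose by 2.17 on the log2 scale (adjusted p 0.0420 and 0.0348). Without control replicate 1 the adjusted p was 0.0750 and 0.0985, and without control replicate 2 it was 0.103 and 0.0986. In mRNA the log2 changes were −1.28 (adjusted p 0.0775) and 1.35 (adjusted p 0.0109).

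Many genes for making ribosomes rose in cold polysomes. Of 33 ribosome biogenesis genes 15 rose (45.5%, against 3.87% of all genes) and the other 18 did not pass. The log2 change was above 0 in all 33, with a median of 1.55. The list took 0.613% and 0.284% of counts in cold and 0.158% and 0.142% in control, so cold replicate 1 lay well above cold replicate 2. The median was 1.85 within number 1 and 1.13 within number 2. DESeq2 called 30 members higher, as did edgeR without cold replicate 2, and without control replicate 1 or 2 edgeR called 1 or 3. In mRNA 27 of the 33 were called higher, against 13.4% of all genes tested there, with a median of 0.86.

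FIB2, a fibrillarin that methylates ribosomal RNA, was at 303 and 99.5 CPM in cold and 25.5 and 21.1 CPM in control and rose by 3.11 (SE 0.54, adjusted p 0.0318) on the log2 scale. FIB2 was not called without control replicate 1 or control replicate 2 (adjusted p 0.0837 and 0.0883). NOP56, a core protein of the same box C/D particles, was at 520 and 205 CPM in cold and 83.2 and 68.7 CPM in control and rose by 2.25. NOP56 was not called without control replicate 1 or control replicate 2 (adjusted p 0.104 and 0.115). In both, each cold library was above each control library, and cold replicate 1 was over 2-fold above cold replicate 2. SWA1, which is needed to process the 18S ribosomal RNA, was at 87.9 and 54.6 CPM in cold and 16.4 and 8.78 CPM in control. It rose by 2.50 (SE 0.39, adjusted p 0.0270), and the call held with any 1 library left out. REIL2, a late maturation factor of the large subunit known for its part in cold growth, rose by 1.29. REIL2 was not called without control replicate 1 or control replicate 2 (adjusted p 0.107 and 0.186).

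The site II motif TGGGCC was in 75.8% of the ribosome biogenesis promoters and 73.0% of the ribosomal protein promoters, against 23.0% of all. The telo-box AAACCCTA is known from promoters of genes for ribosomes. It was in 18 of the 33 ribosome biogenesis promoters (54.5%) and in 18 of 37 ribosomal protein promoters (48.6%), against 8.31% of all. The bases around the gene starts of 4 members that rose are shown for this motif, from RefSeq TAIR10.1: FIB2 from chr4:13074050-13074139 on the plus strand, NOP56 from chr1:20986903-20986992, SWA1 from chr2:19638629-19638718 and AT3G15460, a BRX1 ribosome assembly factor, from chr3:5216212-5216301, the last 3 on the minus strand. Each stretch runs from 40 bases before the gene start to 50 bases into the gene, and capitals mark AAACCCTA or its complement TAGGGTTT. The copies begin 24 bases after the start in FIB2, 17 before and 31 after in NOP56, 4 before in SWA1 and 21 after in AT3G15460.
FIB2: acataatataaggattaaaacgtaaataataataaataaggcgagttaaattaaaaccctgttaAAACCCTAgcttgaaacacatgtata
NOP56: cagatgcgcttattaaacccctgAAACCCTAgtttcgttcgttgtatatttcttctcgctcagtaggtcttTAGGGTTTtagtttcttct
SWA1: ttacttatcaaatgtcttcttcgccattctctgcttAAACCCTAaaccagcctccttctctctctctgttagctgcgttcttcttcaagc
AT3G15460: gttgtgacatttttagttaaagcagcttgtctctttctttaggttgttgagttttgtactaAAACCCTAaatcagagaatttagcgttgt

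Ribosomal protein genes, the products assembled in that pathway, leaned the same way with far fewer calls. Of 37 genes 36 had a log2 change above 0, with a median of 0.96, and 1 rose (2.7%, against 3.87% of all genes). The list took 2.13% and 1.11% of counts in cold and 0.857% and 0.870% in control, and its median was 1.31 within number 1 and 0.45 within number 2. The count moved widely with the processing: DESeq2 called 23 members higher, edgeR over 10 libraries 25 and edgeR without cold replicate 2 called 33, while with library totals, or without either control library, edgeR called none. RACK1C, a scaffold protein of the small subunit, was the member that edgeR called in the 4 polysome libraries, at 264 and 110 CPM in cold and 52.5 and 44.6 CPM in control (log2 1.95, SE 0.43, adjusted p 0.0489). RACK1C was not called without control replicate 1 or control replicate 2 (adjusted p 0.122 and 0.136).

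Of 25 translation factor genes 3 rose (12%, against 3.87% of all genes), with a list median of 0.59, and of 0.77 and 0.39 within numbers 1 and 2. They were TIF3E1 and TIF3H1, subunits of initiation factor eIF3, at log2 changes of 1.32 and 1.26, and EIFISO4G1, the plant-specific scaffold of cap-dependent initiation, at 1.18. EIFISO4G1 was at 244 and 232 CPM in cold and 98.9 and 111 CPM in control, with close replicates and no overlap. Without cold replicate 2, and by DESeq2, 8 members were called higher. None of the 3 was called when a control library was left out: without control replicate 1 the adjusted p was 0.213, 0.198 and 0.236 in the order named.

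The list drawn as cytosolic heat shock holds genes for heat shock proteins, co-chaperones and transcription regulators. Of its 18 genes tested 5 rose (27.8%, against 3.87% of all genes), 3 fell (16.7%, against 3.95%) and 10 did not pass. The list median was 0.095, but of the other sign within numbers 1 and 2, at −0.08 and −0.32. AT3G09440, an HSP70 chaperone, was at 1255 and 1077 CPM in cold and 216 and 152 CPM in control and rose by 2.66 (SE 0.33, adjusted p 0.0217) on the log2 scale. HSP81-2 and HSP81-3, constitutive HSP90 chaperones, rose by 1.86 and 1.44, and HSP70-2 by 2.22; without control replicate 1 their adjusted p was 0.0943, 0.122 and 0.0615. HOP3, a co-chaperone, fell by 2.61 on the log2 scale, ROF2, a peptidyl-prolyl isomerase, fell by 1.77, and MBF1C, a coactivator, fell by 2.07.

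For AT3G09440 the call held with any 1 library left out, while the 3 falls were lost without control replicate 1 or control replicate 2 (adjusted p 0.110 and 0.0635 for HOP3), and that of ROF2 also without cold replicate 1 (adjusted p 0.0623). Without control replicate 1 the list had 1 rise and without control replicate 2 it had 2. In mRNA AT3G09440 changed by 0.34 (adjusted p 0.449) and the difference between the 2 changes had an adjusted p of 0.101. BIP1, the lumenal HSP70 of the endoplasmic reticulum, was at 533 and 436 CPM in cold and 205 and 182 CPM in control and was the 1 gene edgeR called among 19 for folding there (log2 1.33, adjusted p 0.0415). BIP1 was not called without control replicate 1 or control replicate 2 (adjusted p 0.182 and 0.216). That is 5.26% of the folding genes, near the 3.87% of all genes, and DESeq2 called 4 higher and 1 lower. Reads that align to several of these near-identical copies, like those of KIN1 and KIN2 or of the LHCB1 genes, were given to no gene, so their levels rest on the reads that tell the copies apart.

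Genes at several steps of flavonoid synthesis rose in cold polysomes, from the entry enzyme to sugar transferases. Of 27 genes of phenylpropanoid and flavonoid synthesis 10 rose (37%, against 3.87% of all genes) and the other 17 did not pass. The median log2 change was 1.404, and 1.68 and 0.89 within numbers 1 and 2. The list was not uniform: 9 of the 27 were below 0, and 3 were lower at an unadjusted p under 0.05. DESeq2 called 13 higher and 2 lower. In mRNA 7 of the 27 were called higher and 7 lower, against 13.4% and 12.3% of all genes, with a median of 0.45. With 1 library left out 6 to 15 members were called higher in polysomes, the most without cold replicate 2.

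PAL2, phenylalanine ammonia-lyase at the head of the pathway, was at 542 and 469 CPM in cold and 133 and 117 CPM in control (log2 2.02, adjusted p 0.0233). PAL2 was not called without control replicate 1 or control replicate 2 (adjusted p 0.0743 and 0.0734). CHS, chalcone synthase, which commits carbon to flavonoids, was at 952 and 545 CPM in cold and 52.1 and 75.3 CPM in control (log2 3.56, SE 0.41, adjusted p 0.0198). FLS1, flavonol synthase, was at 187 and 98.2 CPM in cold and 16.4 and 14.9 CPM in control (log2 3.19, SE 0.37, adjusted p 0.0196). CHS and FLS1 were higher in cold replicate 1 than in cold replicate 2, without overlap with the controls, and their calls held with any 1 library left out.

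MYB111, a transcription factor of flavonol synthesis, rose from 0.626 and 0.819 CPM in control to 7.19 and 8.89 CPM in cold, a log2 change of 3.46 (SE 0.39, adjusted p 0.0189). HYH, a bZIP factor of light signalling, rose by 2.09, and UGT78D1 and UGT78D2, which add sugars to flavonols, by 1.41 and 1.79. Of these 4 genes the 2 transferases lost their calls without control replicate 1, at adjusted p 0.148 and 0.0580. PAP1, a transcription factor of anthocyanin synthesis, was at 2.46 and 1.46 CPM in cold and 5.34 and 5.91 CPM in control and did not pass (log2 −1.5, adjusted p 0.0693).

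**Figure D3:**
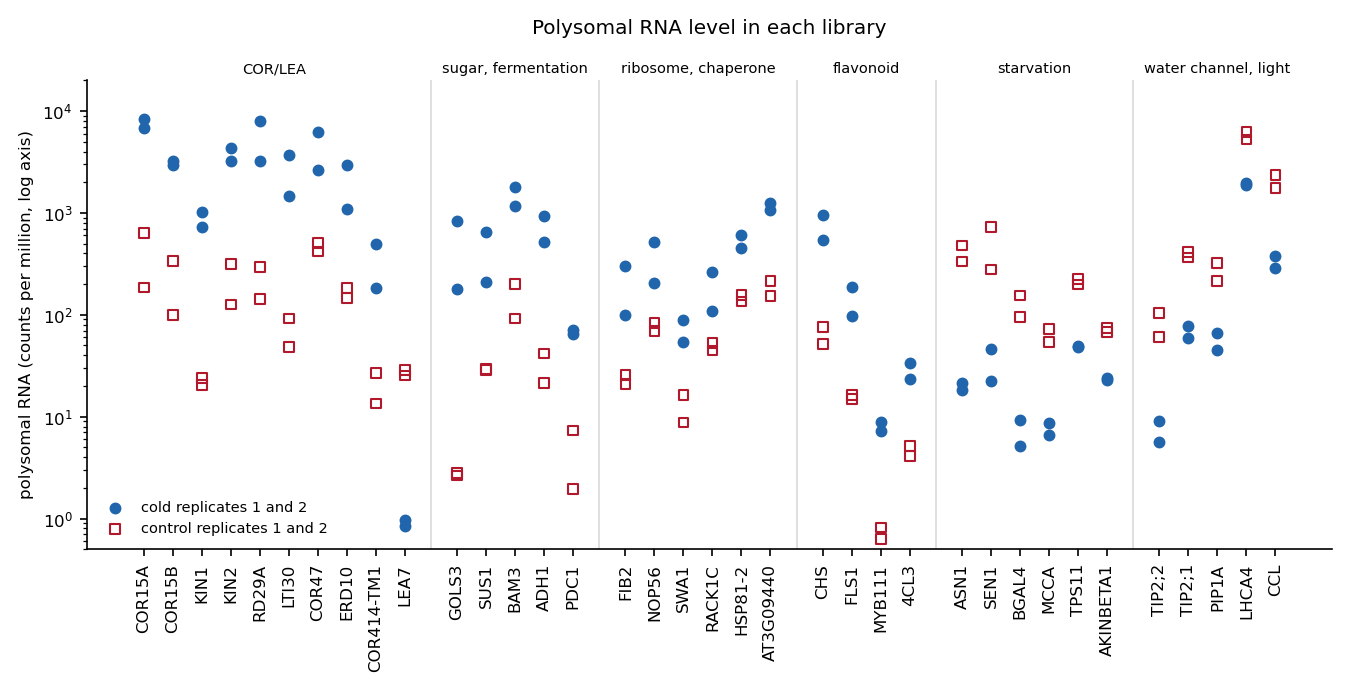
Level in CPM (log axis) of 36 genes in each of the 4 polysome libraries, with filled circles for the cold and open squares for the control replicates. COR15A reached 8383 in cold against 639 at most in control, and ASN1 lay at 21.3 at most in cold against 333 at least in control. No gene drawn here has cold and control libraries that overlap, as in 60.6% of all genes tested.

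Genes that plants switch on in darkness or energy shortage had the largest share of falls of any list here. Of 27 members 16 fell (59.3%, against 3.95% of all genes) and the other 11 did not pass, with a median log2 change of −1.54 and of −1.68 and −1.21 within numbers 1 and 2. In mRNA 1 of the 27 was called lower, against 12.3% of all genes tested there, and the median was −0.003. But the test of the difference between the polysome and mRNA changes called 1 of the 27, lower, against 0.22% of all genes. With 1 library left out 5 to 14 members were called lower in polysomes, the fewest without control replicate 1. ASN1, glutamine-dependent asparagine synthetase, was at 18.1 and 21.3 CPM in cold and 333 and 479 CPM in control. Its log2 change was −4.37 (SE 0.33, adjusted p 0.0155), and the call held with any 1 library left out.

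SEN1, a gene induced in the dark and in senescence, was at 46.0 and 22.6 CPM in cold and 731 and 278 CPM in control and fell by 3.87. SEN1 was not called without cold replicate 1 or cold replicate 2 (adjusted p 0.0852 and 0.0885). BGAL4, a beta-galactosidase, was at 9.29 and 5.17 CPM in cold and 155 and 94.8 CPM in control and fell by 4.09 (SE 0.41, adjusted p 0.0174). In both, control replicate 1 was above control replicate 2 and both lay above the cold libraries.

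Enzymes that break down branched-chain amino acids were among the falls. MCCA and MCCB, the subunits of methylcrotonyl-CoA carboxylase, fell by 3.06 and 1.54, IVD, isovaleryl-CoA dehydrogenase, by 1.88, and BCAT2, a branched-chain aminotransferase, by 2.37 on the log2 scale. ETFQO, which passes electrons from IVD to the respiratory chain, fell by 1.21, and DIN3, a subunit of the branched-chain keto acid dehydrogenase, by 1.4. MCCA was at 6.65 and 8.65 CPM in cold and 73.0 and 53.9 CPM in control, with a call that held with any 1 library left out. The other 5 were not called without control replicate 1, where the adjusted p ranged from 0.0750 to 0.129. BCAT2 and IVD were also not called without cold replicate 1 (adjusted p 0.243 and 0.116) or cold replicate 2, nor was ETFQO without cold replicate 1 or control replicate 2.

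Regulators in the list fell as well. TPS11, a trehalose phosphate synthase-like protein, was at 48.8 and 49.5 CPM in cold and 224 and 199 CPM in control (log2 −2.10, SE 0.24, adjusted p 0.0189) and stayed called with any 1 library left out. BZIP1, a transcription factor of the starvation response, was at 18.7 and 9.22 CPM in cold and 68.6 and 39.6 CPM in control (log2 −1.94, adjusted p 0.0457). BZIP1 was not called without cold replicate 2 or control replicate 1 (adjusted p 0.0694 and 0.120). AKINBETA1, a subunit of the SnRK1 energy-sensing kinase, was at 22.9 and 23.8 CPM in cold and 74.0 and 67.9 CPM in control (log2 −1.60, adjusted p 0.0224). AKINBETA1 was not called without control replicate 1 (adjusted p 0.0604).

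TATCCA, a motif known from sugar-repressed promoters, was in 15 of the 27 promoters of this list (55.6%), against 28.1% of all. The light-reaction promoters had much the same share, 21 of 38 (55.3%). Stretches with it are shown for 3 genes that fell, from RefSeq TAIR10.1: ASN1 from chr3:17441492-17441571 on the minus strand, SEN1 from chr4:16944848-16944927 and AKINBETA1 from chr5:7205427-7205506, both on the plus strand. Capitals mark TATCCA or its complement TGGATA. The copies begin 101 bases before the gene start in ASN1, 31 after it in SEN1, and 32 before and 6 after it in AKINBETA1.
ASN1: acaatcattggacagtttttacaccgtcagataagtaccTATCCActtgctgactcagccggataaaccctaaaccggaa
SEN1: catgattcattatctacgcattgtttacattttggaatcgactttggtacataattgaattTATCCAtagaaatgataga
AKINBETA1: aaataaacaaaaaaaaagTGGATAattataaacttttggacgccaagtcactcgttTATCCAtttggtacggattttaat

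**Figure D4:**
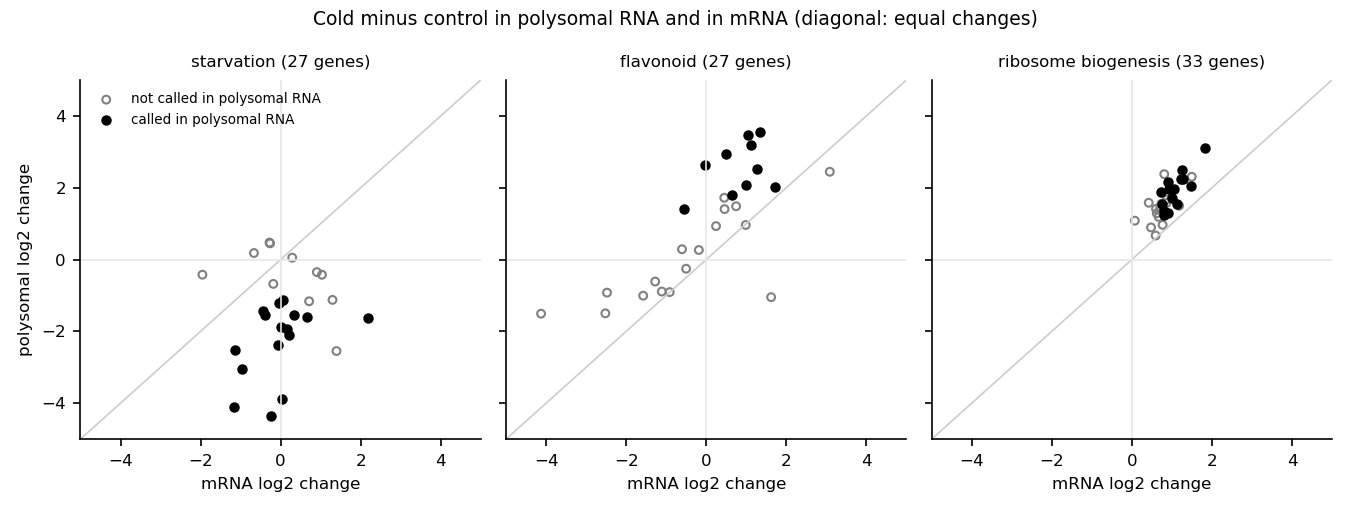
Log2 change, cold minus control, in polysomal RNA (vertical axis) against mRNA (horizontal axis) for each member of the starvation (27), flavonoid (27) and ribosome biogenesis (33) lists, with the diagonal marking equal changes. Filled points were called in polysomal RNA. Most starvation genes lie below the diagonal and spread around 0 on the mRNA axis, with medians of −1.54 in polysomes and −0.003 in mRNA. The difference between the 2 changes was called for 1 starvation gene (lower) and 1 flavonoid gene (higher), and its lowest adjusted p among the ribosome biogenesis genes was 0.241.

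Aquaporins, channels that carry water across the plasma membrane (PIP) and the vacuole membrane (TIP), fell in part. The share of the list that fell was 38.9%, against 3.95% of all genes. Of 18 genes 7 fell, with a median log2 change of −1.47 and of −1.15 and −1.65 within numbers 1 and 2, and 5 to 7 were called lower with 1 library left out. In mRNA 12 were called lower, against 12.3% of all genes tested there, with a median of −1.37. TIP2;2 was at 5.67 and 9.14 CPM in cold and 60.9 and 105 CPM in control (log2 −3.50, SE 0.39, adjusted p 0.0189). TIP2;1 was at 78.0 and 58.7 CPM in cold and 365 and 414 CPM in control (log2 −2.51, SE 0.29, adjusted p 0.0193). PIP1A was at 44.7 and 65.8 CPM in cold and 216 and 324 CPM in control (log2 −2.29, SE 0.34, adjusted p 0.0249). These 3 stayed called with any 1 library left out. Beside them, the 14 root markers, summed, took a smaller share of counts in both cold libraries, as given above. Singly, 6 had a log2 change above 0 and 8 below. Their median was −0.16, and 0.14 and −0.5 within numbers 1 and 2. The median log2 CPM of the 14 was 0.76 and −0.14 in cold and 1.67 and 1.45 in control. A few abundant members thus carry the sum. The part of the root markers in the aquaporin levels was not tested. Of those markers edgeR called none, with 3 lower and none higher at an unadjusted p under 0.05 and 2 lower called by DESeq2.

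Of 26 genes for growth and cell walls 4 fell (15.4%, against 3.95% of all genes). EXPA1 and EXPA8, expansins that loosen the wall, were both highest in control replicate 2. EXPA1 was at 75.3 and 67.0 CPM in cold and 234 and 644 CPM in control, and EXPA8 at 7.28 and 18.3 CPM in cold and 76.2 and 169 CPM in control. They fell by 2.62 and 3.27 on the log2 scale, and neither was called without cold replicate 1 (adjusted p 0.200 and 0.122). PIF4, a transcription factor that drives elongation in warmth and shade, was at 22.7 and 24.1 CPM in cold and 102 and 132 CPM in control (log2 −2.32, SE 0.24, adjusted p 0.0188). GASA6, a peptide gene induced by gibberellin, fell by 2.81. The calls of PIF4 and GASA6 held with any 1 library left out, and EXPA1 was also not called without cold replicate 2 (adjusted p 0.171). CER1, an enzyme of wax alkane synthesis, was the 1 gene edgeR called among 23 for lipids and wax, at 12.9 and 13.3 CPM in cold and 45.3 and 63.0 CPM in control (log2 −2.05, adjusted p 0.0212). That is 4.35% of the list, near the 3.95% of all genes, and DESeq2 called 3 higher and 5 lower.

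Genes of the light reactions took the largest share of any list in control and a smaller one in cold, as given above. Of 38 members 37 had a log2 change below 0, with a median of −0.80, and of −1.0 and −0.69 within numbers 1 and 2. By edgeR 3 fell (7.89%, against 3.95% of all genes), while DESeq2 called 17 lower and edgeR over 10 libraries 12. The 3 were LHCA4, an antenna protein of photosystem I, LHCB1.4, an antenna protein of photosystem II, and PETE1, plastocyanin. LHCA4 was at 1880 and 1958 CPM in cold and 5242 and 6252 CPM in control (log2 −1.58, SE 0.33, adjusted p 0.0427). LHCA4 was not called without cold replicate 1, control replicate 1 or control replicate 2 (adjusted p 0.0540, 0.163 and 0.184). Without cold replicate 2, 10 members were called lower, and without either control library none was. Of 16 Calvin-cycle genes edgeR called none, with 3 lower and none higher at an unadjusted p under 0.05 and 3 lower and none higher called by DESeq2. RCA, the activase of Rubisco, was at 4049 and 4811 CPM in cold and 8484 and 9527 CPM in control (log2 −1.02, adjusted p 0.113).

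CBF2, a transcription factor that switches on COR genes, was among the 3 rises of 23 cold regulators (13%, against 3.87% of all genes). The list did not move as a whole, with 12 members above 0 and 11 below. Its median log2 change was 0.196, and −0.02 and 0.53 within numbers 1 and 2. CBF2 was at 14.5 and 27.2 CPM in cold and 3.56 and 2.00 CPM in control (log2 2.90, SE 0.44, adjusted p 0.0255). RAP2.1, a repressor of the same AP2 family that is known as a target of the CBF factors, was at 35.9 and 55.3 CPM in cold and 5.53 and 5.09 CPM in control (log2 3.10, SE 0.29, adjusted p 0.0170). Both calls held with any 1 library left out. RAP2.6, an ethylene response factor, rose by 1.76. RAP2.6 was not called without control replicate 1 or control replicate 2 (adjusted p 0.0980 and 0.0782). WRKY40, a transcription factor of defence and abscisic acid signalling, fell by 2.30. This 1 fall was 4.35% of the list, near the 3.95% of all genes. WRKY40 was not called without control replicate 1 (adjusted p 0.0990).

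The circadian clock is a set of interlocked regulators whose transcripts peak at set times of day. Of 12 morning genes 4 rose (33.3%, against 3.87% of all genes). The median log2 change was 0.94, and 1.04 and 0.87 within numbers 1 and 2. RVE2, a MYB-like factor, was at 207 and 162 CPM in cold and 7.22 and 2.14 CPM in control and rose by 5.30. RVE2 was not called without cold replicate 1 or cold replicate 2 (adjusted p 0.143 and 0.0861). CCA1, a core morning repressor, was at 361 and 491 CPM in cold and 80.7 and 91.9 CPM in control and rose by 2.30. CCA1 was not called without control replicate 1 (adjusted p 0.0707). LHY, its partner, was at 136 and 216 CPM in cold and 5.87 and 30.3 CPM in control and missed the threshold (log2 3.28, adjusted p 0.0551), with control replicate 2 over 5-fold above control replicate 1. Without control replicate 1 or 2 LHY passed, at an adjusted p of 0.0444 and 0.00209.

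Of 10 evening genes edgeR called none, with 1 higher and none lower at an unadjusted p under 0.05 and none called by DESeq2, and the 2 control libraries stood apart. The median log2 CPM of the 10 was 5.26 and 5.19 in cold but 5.10 and 3.46 in control replicates 1 and 2. TOC1, which represses CCA1, was at 170 and 148 CPM in cold and 100 and 23.3 CPM in control. The list median was 0.23 within number 1 and 2.63 within number 2, and without control replicate 1, 5 of the 10 were called higher. In mRNA 7 of the 10 were called higher, against 13.4% of all genes tested there, with a median of 3.58. But the test of the difference between the polysome and mRNA changes called 1 of the 10, lower, against 0.22% of all genes. What part the time of day of collection had in the clock genes was not tested.

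Of 14 genes for writers, erasers and readers of m6A, the mark the series is about, 3 rose (21.4%, against 3.87% of all genes). The list median was 0.64, and 0.66 and 0.63 within numbers 1 and 2. MTA, the catalytic subunit of the m6A writer, was at 51.8 and 52.2 CPM in cold and 24.4 and 23.2 CPM in control (log2 1.13, SE 0.20, adjusted p 0.0318). EMB1691, which is the writer subunit known as MTB, was at 48.0 and 59.5 CPM in cold and 25.6 and 27.6 CPM in control (log2 1.01, SE 0.22, adjusted p 0.0450). ECT3, a YTH-domain reader, was at 192 and 117 CPM in cold and 60.9 and 45.7 CPM in control (log2 1.53, SE 0.32, adjusted p 0.0444). None of the 14 was called without control replicate 1 or without control replicate 2, where the adjusted p of MTA was 0.145 and 0.147.

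Of 22 genes of abscisic acid synthesis and signalling 4 fell, a larger share than the 3.95% of all genes that fell, and 1 rose. The list median was −0.31, and −0.65 and −0.31 within numbers 1 and 2. DESeq2 called 6 lower and 5 higher. HAI1 and HAI2, phosphatases that damp the signal and are induced by it, fell by 2.71 and 1.83, ABF3, a transcription factor of the response, by 2.06, and ABA2, an enzyme of abscisic acid synthesis, by 1.22 on the log2 scale. PYL6, a receptor, rose by 1.79. This 1 rise was 4.55% of the list, near the 3.87% of all genes. ABF3 was at 8.75 and 13.7 CPM in cold and 39.5 and 53.9 CPM in control and stayed called with any 1 library left out, while with 1 library left out 1 to 4 members of the list were called lower, the fewest without control replicate 2.

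Of 21 defence and jasmonate genes 4 fell (19%, against 3.95% of all genes). Among these, ICS1, which makes salicylic acid, fell by 2.04 and MYC2, a jasmonate transcription factor, by 1.96. Without cold replicate 1, control replicate 1 or control replicate 2 the list had 1 fall each, and without control replicate 2 it also had 2 rises. DESeq2 called 1 member higher and 4 lower. ICS1 was at 5.54 and 3.31 CPM in cold and 15.9 and 21.0 CPM in control. ICS1 was not called without control replicate 2 (adjusted p 0.0560). MYC2 was at 9.06 and 11.3 CPM in cold and 52.0 and 27.3 CPM in control. MYC2 was not called without control replicate 1, cold replicate 2 or cold replicate 1 (adjusted p 0.0766, 0.0581 and 0.109). Of 26 glucosinolate genes 3 fell (11.5%, against 3.95% of all genes). CYP79B2 and CYP79B3, which start the indole branch, fell by 1.37 and 1.2, and SOT17, a sulfotransferase of the last step, by 1.32. None of the glucosinolate genes was called without either control library, where the adjusted p of CYP79B2 was 0.0587 and 0.117. CYCB1;2, a mitotic cyclin, was the 1 gene edgeR called among 17 of the cell cycle, 5.88% against 3.95% of all genes (log2 −1.12, adjusted p 0.0490) and was not called with any 1 library left out, at adjusted p from 0.0604 to 0.240.

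Other genes, named for the size of their change or for their abundance, belong to no list. AZI1, a lipid transfer-like protein of systemic defence priming, was at 1181 and 1849 CPM in cold and 81.9 and 119 CPM in control (log2 3.91, SE 0.41, adjusted p 0.0188). LOS2, an enolase of glycolysis, was at 1658 and 1354 CPM in cold and 467 and 508 CPM in control (log2 1.63, SE 0.30, adjusted p 0.0340). LOS2 was not called without control replicate 1 or control replicate 2 (adjusted p 0.196 and 0.141). J8, a DnaJ-domain protein of the chloroplast, was at 80.9 and 110 CPM in cold and 829 and 869 CPM in control (log2 −3.15, SE 0.31, adjusted p 0.0174). AZI1 and J8 stayed called with any 1 library left out.

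AT1G51400, annotated as a 5 kD protein of photosystem II, fell by 3.20 and CLA1, the first enzyme of the plastid isoprenoid pathway, by 1.85. CLA1 was not called without control replicate 1 or control replicate 2 (adjusted p 0.0695 and 0.107). FBA5, a cytosolic aldolase, was at 241 and 338 CPM in cold and 1077 and 762 CPM in control and fell by 1.67. FBA5 was not called without cold replicate 1, control replicate 1 or control replicate 2 (adjusted p 0.0572, 0.169 and 0.0610). NUDT8, a nudix hydrolase, was at 2.68 and 7.12 CPM in cold and 69.6 and 49.3 CPM in control and fell by 3.64 (SE 0.49, adjusted p 0.0233). HIS1-3, a linker histone known for its response to drought, fell by 3.53. HIS1-3 was not called without cold replicate 1 or cold replicate 2 (adjusted p 0.181 and 0.110).

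The change in polysomes was then set against the change in mRNA. In mRNA 2586 of 19261 genes (13.4%) were higher and 2363 (12.3%) lower. The test of the difference itself, the polysome change minus the mRNA change over 10 libraries, called 13 of 20001 genes higher (0.065%) and 44 lower (0.22%). The 2 kinds of library were unlike: genes held 92.8% to 93.8% of tallied reads in polysome libraries and 6.604% to 31.2% in mRNA libraries. The lowest of these was cold mRNA replicate 3, with 3282574 gene counts of which 14.1% were chloroplast. RNA fraction and library kind cannot be told apart in this design.

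Among abundant genes called in both tests, 5 had the higher change in polysomes. MIPS1, which makes inositol phosphate, the precursor of galactinol, was at 725 and 1109 CPM in cold polysomes and 172 and 267 CPM in control polysomes. It rose by 2.06 (SE 0.38) in polysomes and fell by 0.93 in mRNA, a difference of 2.93 (SE 0.36, adjusted p 0.0138). CIPK7, a kinase that works with calcium sensors, rose by 1.53 in polysomes and fell by 0.73 in mRNA, a difference of 2.19 (SE 0.25, adjusted p 0.00987). 4CL3, the 4-coumarate ligase of flavonoid synthesis, rose by 2.63 in polysomes with an mRNA change of −0.02 (adjusted p 0.955). AO, L-aspartate oxidase, which begins NAD synthesis, and CLC-B, an anion channel, differed by 2.84 and 2.16. CIPK7 was past the threshold of the difference in 12 of 13 alternatives, MIPS1 in 11, CLC-B in 9, 4CL3 in 8 and AO in 5.

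The 8 genes with the lowest differences included ASN1, at −4.17 (SE 0.63, adjusted p 0.0316), with an mRNA change of −0.25. COR15B, the neighbour and close copy of COR15A, rose in both, by 3.83 in polysomes and 7.81 in mRNA, so its difference was −4.04 (adjusted p 0.0247). CCL, a gene known for an unstable transcript under clock control, was at 289 and 379 CPM in cold polysomes and 2366 and 1768 CPM in control polysomes. It fell by 2.63 in polysomes and rose by 1.21 in mRNA (difference −3.92, SE 0.49, adjusted p 0.0139). LHCB1.4 fell by 1.70 in polysomes and rose by 1.54 in mRNA (difference −3.32, adjusted p 0.0373).

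CYP81D11, a cytochrome P450, was at 11.4 and 5.98 CPM in cold polysomes and 139 and 64.0 CPM in control polysomes and had the lowest difference of the named genes, −5.23 (SE 0.59, adjusted p 0.0116). Fes1B, annotated after the yeast exchange factor of HSP70, followed at −5.12 (SE 0.70, adjusted p 0.0247). AT1G70820, annotated as a putative phosphoglucomutase, fell by 2.25 in polysomes and rose by 1.4 in mRNA. SCPL13, a serine carboxypeptidase-like protein, differed by −3.29 (adjusted p 0.0446). CYP81D11 and AT1G70820 were past the threshold in 12 of 13 alternatives, CCL in 11, COR15B and Fes1B in 7, LHCB1.4 in 6, ASN1 in 5 and SCPL13 in 4. Without cold polysome replicate 1, 3 genes in all were called higher and 1 lower, and without control polysome replicate 1 the counts were 0 and 13. Without cold mRNA replicate 3 they were 5 and 15, and without control mRNA replicate 2 they were 1 and 7.

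The polysome calls of these genes also moved when 1 library was left out. MIPS1, CIPK7 and LHCB1.4 were not called in polysomes without control replicate 1 or 2, with adjusted p of 0.148 and 0.0517 for MIPS1. CLC-B and CCL were not called without control replicate 1 (adjusted p 0.0707 and 0.0505), and CYP81D11 and COR15B not without cold replicate 1 (adjusted p 0.0633 and 0.134) or cold replicate 2. Of the 4 polysome fits with 1 library left out, SCPL13 was called only in that without control replicate 2. 4CL3, AO, ASN1, AT1G70820 and Fes1B stayed called in polysomes with any 1 library left out.

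**Figure D5:**
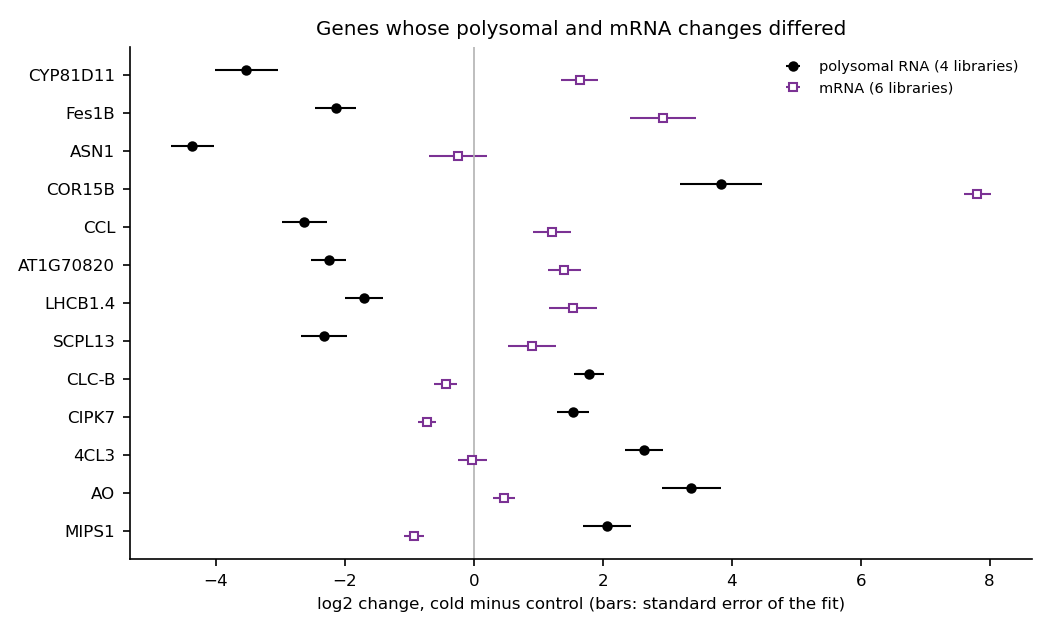
Log2 change, cold minus control, in polysomal RNA (filled circles, 4 libraries) and in mRNA (open squares, 6 libraries) for 13 abundant genes whose 2 changes differed, ordered by the difference, with bars for the standard error of the fit. For 7 of them the 2 changes were called in opposite directions, such as CYP81D11 (−3.53 and 1.64) and MIPS1 (2.06 and −0.93).

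Of 14 cold-responsive RNA-binding genes 1 rose (7.14%, against 3.87% of all genes; DESeq2 called 3), namely CSP1, a cold shock domain protein, at 67.2 and 42.8 CPM in cold and 24.2 and 20.2 CPM in control (log2 1.31, adjusted p 0.0454). CSP1 was not called without cold replicate 1, control replicate 1 or control replicate 2 (adjusted p 0.0554, 0.121 and 0.159). Of 10 senescence markers edgeR called none, with 1 higher and 3 lower at an unadjusted p under 0.05 and 1 higher and 1 lower called by DESeq2.

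The median coding length was 1257 bases for 744 rises, 1080 bases for 758 falls and 1170 bases for the 18890 genes tested with a RefSeq coding sequence. Among the more abundant genes, at a log2 CPM of 4 or more on average, it was 1251 bases. These medians are given as a description, with no test.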

How the data were processed

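Polysomal RNA and mRNA were sequenced by the authors, who deposited a table of raw read counts per gene for each library. STAR, HTSeq and the TAIR10 genome are named in the submitters' processing notes, without versions; which strand setting and annotation release were used is not given in the sources used here. Tally rows that name no gene were removed (6.21% to 7.19% of tallied reads in the polysome libraries). These include reads with several alignments, so near-identical genes are uncertain, as are overlapping and antisense genes. The peak lists were not used, and 0 columns of values were set aside.

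The 4 polysome libraries were fitted in edgeR 4.0.16 (R 4.3.3, limma 3.58.1) with TMM scaling, its filter on low counts and the robust quasi-likelihood test. Benjamini-Hochberg adjustment ran over all genes tested, with a threshold of 0.05. The mRNA libraries had a fit of their own, and the difference of changes came from 10 libraries. Standard errors are the log2 change divided by the square root of F, and CPM values use TMM sizes. Alternatives were DESeq2 1.42.0, other scalings and filters, all libraries in one fit, the replicate number as a block, and each library left out. Within-number changes (prior count 2) and the nutrient lists were added after seeing the data. The fits were run on simulated counts, drawn independently with the same dispersion for every gene and no effect of replicate number. That run cannot show how the fits behave where libraries of the same number deviate together. Python 3.11.15, pandas 2.3.3 and matplotlib 3.10.9 were used for the rest.

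The comparison, its 28 lists and its tests were chosen with earlier results of these data known. Genes named are the 20 largest rises and falls whose mean log2 CPM reached 4, the 10 most abundant calls of at least 2-fold per direction, up to 3 calls per direction and list whose mean log2 CPM reached 2 (the 2 of lowest p where none passed), and the 8 largest differences from mRNA per direction. Of these, the text prints the ones that add to what is described. Chosen after their values were seen were PAL2, PAP1, HYH, UGT78D1, UGT78D2, MCCA, MCCB, IVD, BCAT2, ETFQO, DIN3, TPS11, BZIP1, AKINBETA1, PIP1A, PIF4, REIL2, AT3G15460, SPS2F, HSP81-3, HOP3, HAI1, HAI2, LHY, TOC1 and RAB18. Promoters are RefSeq TAIR10.1, from 500 bases before to 50 after each gene start.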

Additional observations from a re-analysis of the deposited data

Results flagged for a closer look

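For 11 genes the polysome change and the mRNA change were each past the threshold, ran in opposite directions and differed in the test of the difference itself. All values are log2, polysome change minus mRNA change. CIPK7 (2.19) and MIPS1 (2.93) were higher in cold polysomes and lower in cold mRNA. The other 9 were lower in cold polysomes and higher in cold mRNA: CYP81D11 (−5.23), Fes1B (−5.12), CCL (−3.92), AT1G70820 (−3.72), LHCB1.4 (−3.32), RMA1 (−3.12), AT2G30600 (−2.48), AT4G30690 (−2.37) and MSL3 (−1.86). RMA1, a ubiquitin ligase of the endoplasmic reticulum membrane, was at 18.44 and 18.19 CPM in cold polysomes and at 73.3 and 42.3 CPM in control polysomes, a log2 change of −1.66 in polysomes against 1.4 in mRNA. Of 13 alternatives, RMA1 was past the threshold of the difference in 12, AT2G30600 in 8, AT4G30690 in 7 and MSL3 in 1.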

How the results depend on the processing

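With 2 libraries a group, the number of calls moved widely. Of 744 higher and 760 lower genes, DESeq2 gave 1697 and 1397, a fit over 10 libraries 2150 and 1766, and no filter 1170 higher; 1503 of the 1504 calls were also made by DESeq2. With 1 library left out, calls ranged from 141 to 1597 higher and from 207 to 1044 lower. At 2-fold or more DESeq2 gave 1305 and 1226, the fit over 10 libraries 1321 and 1320, and leaving out 1 library 141 to 1459 higher and 207 to 1015 lower. With library totals as the scaling, 42.1% of calls were higher against 49.5%. The difference from mRNA was called for 195 genes higher and 314 lower by DESeq2, for 8 and 27 with library totals, and for 0 to 22 and 1 to 115 with 1 library left out.

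Samples with the same replicate number deviated together (r = 0.419 over 9107 genes, as a description), but with 2 pairs they share only a number. With the replicate number as a block, 2199 genes were higher and 2309 lower, 1402 and 1672 of them by 2-fold or more, and the difference was called for 47 and 76. That fit has 1 residual degree of freedom, against 2 without the block. ELIP1 was not called under the block (adjusted p 0.0698), nor were the differences of MSL3 and AT3G50840 (adjusted p 0.0553 for each) and RCI2A (adjusted p 0.0587).

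Of 119 named genes, 53 lost their call without control replicate 1 and 41 without control replicate 2. SEP3, a floral gene that was not called, was at a log2 change of 0.25 without control replicate 2 (adjusted p 0.889), the only named gene to turn direction, and at −0.70 without control replicate 1. Depth limits genes of a few CPM, and the cause of the moves was not tested.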
